A study of Arabidopsis thaliana with 24 samples.

Results

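The transcripts of brl3-2 root tips of Arabidopsis thaliana were compared after a short exposure to zeocin and after a mock treatment. The comparison holds 6 of the 12 RNA-seq libraries of the study: 3 libraries of zeocin-treated brl3-2 roots (brl3-2 zeocin replicates 1 to 3) and 3 of mock-treated brl3-2 roots (brl3-2 mock replicates 1 to 3). Members were chosen by genotype and treatment alone, as the sample labels give them. All plants of both groups carry brl3-2 (SALK_006024C), a T-DNA insertion in BRL3, so the mutation is shared, only the treatment differs, and the results rest on this 1 insertion line. Seedlings were 6 days old when they were moved to liquid medium with zeocin or with DMSO as the mock, and primary root tips were taken for RNA after 2 h. For the dose the labels give 10 µM in some fields and 2 µM in another, so no dose is tied to the values below. The other 6 libraries, 3 of zeocin-treated and 3 of mock-treated Col-0 wild type (WT) root tips, shared the fit and serve as a comparison at the end.

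Zeocin is an antibiotic of the bleomycin family that enters cells and cuts DNA, leaving double-strand breaks. In plants the kinases ATM and ATR sense such damage and activate SOG1, a NAC transcription factor that stands at the head of most of the transcriptional response. Its known targets repair the breaks, supply nucleotides for the repair and hold back the cell cycle through inhibitors of cyclin-dependent kinases. BRL3 is a brassinosteroid receptor of the BRI1 family with high activity in vascular cells and in the stem cell niche of the root tip.

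The promoters of several of the genes that rose most carry the same short palindrome, CTTNNNNNNNAAG, which is the consensus known for binding by SOG1. Of the 15 genes with the largest called rise and at least 1 CPM under zeocin, 8 held it before the start of the gene. The window ran from 250 bases before to 50 bases after that start. Over all genes tested 9.13% held it before the start, and enrichment was not tested. Stretches of these 8 windows are shown. The sequences were read from the RefSeq TAIR10.1 genome, 5′ to 3′ on the strand of the gene, and capitals mark the fixed arms of the motif.
SMR7 (AT3G27630), chr3:10231568-10231650, minus strand: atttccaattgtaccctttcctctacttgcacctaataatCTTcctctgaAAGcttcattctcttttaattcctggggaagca
AT4G05380, chr4:2735964-2736056, plus strand: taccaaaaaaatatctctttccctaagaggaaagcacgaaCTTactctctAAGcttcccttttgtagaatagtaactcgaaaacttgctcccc
AT4G09215, chr4:16891899-16891991, minus strand: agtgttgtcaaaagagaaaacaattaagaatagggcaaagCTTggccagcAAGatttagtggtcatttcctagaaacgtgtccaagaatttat
AT1G20750, chr1:7209096-7209188, minus strand: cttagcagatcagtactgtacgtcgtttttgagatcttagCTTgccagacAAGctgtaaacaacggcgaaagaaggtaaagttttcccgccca
AT5G53240, chr5:21601379-21601471, plus strand: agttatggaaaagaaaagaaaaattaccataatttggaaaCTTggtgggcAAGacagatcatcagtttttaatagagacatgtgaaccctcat
AT1G68240, chr1:25576142-25576234, minus strand: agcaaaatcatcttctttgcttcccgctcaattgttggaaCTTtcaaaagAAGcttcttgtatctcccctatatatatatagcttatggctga
SLAC1 (AT1G12480), chr1:4259392-4259484, minus strand: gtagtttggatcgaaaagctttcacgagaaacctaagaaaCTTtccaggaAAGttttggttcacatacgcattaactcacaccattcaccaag
AT3G14300, chr3:4770014-4770106, minus strand: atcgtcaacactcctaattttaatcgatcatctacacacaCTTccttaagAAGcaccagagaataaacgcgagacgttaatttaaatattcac
In SMR7 the motif began 43 bases before the start of the gene, and in SLAC1, the farthest of the 8, it began 144 bases before it. The bases between the arms differed in every one of these promoters.

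The 6 brl3-2 libraries held 32706887 to 38276389 counts, and the first principal component of their log2 CPM values (counts scaled by library size and TMM factor) took 61.2% of the variance and separated the zeocin from the mock libraries. The second took 13.8% and set both libraries numbered 3 apart from the others. Zeocin replicate 3 showed the smallest rises of the treated libraries: among the 420 genes called with a rise of 2-fold or more it was the lowest of the 3 zeocin libraries for 333. These genes summed to 26720 CPM in it, against 32940 and 32900 CPM in zeocin replicates 1 and 2 and 6082 to 6293 CPM in the mock libraries. Its falls were not smaller. The 72 genes called with a fall of 2-fold or more summed to 367.1 CPM in it, against 420.1 and 388.5 CPM in zeocin replicates 1 and 2. Mock replicate 2 stood apart in 6 tested photosynthesis genes, markers of green shoot tissue, which summed to 255 CPM there. The same genes summed to 31.5 to 54.8 CPM in the zeocin libraries and to 28.2 and 40.4 CPM in the other mock libraries. The part of these features in the results was not tested, and counts without each library are given where they move a count by more than 1.5-fold. The labels call the samples biological replicates but do not say which plants or plates they came from. The p-values rest on the spread between samples within groups, estimated over all 12 libraries of the shared fit and not over the 6 brl3-2 libraries alone.

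BRL3 itself was read at a low level in brl3-2 and did not pass the test of a zeocin response. The 3 zeocin libraries had 1.01, 1.06 and 0.935 CPM, and the 3 mock libraries had 0.698, 1.26 and 1.06 CPM, so the groups overlapped. The log2 change was −0.01 ± 0.26 (SE, n = 3 libraries per group; edgeR adjusted p = 0.997). For scale, WT root tips had 21.5 to 31.7 CPM of BRL3 under zeocin and 9.55 to 12.9 CPM in mock. The table counts reads per gene, so where in the gene the remaining brl3-2 reads lie was not analysed here.

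Zeocin moved 1045 of the 19437 genes tested in brl3-2 (5.38%) past an edgeR adjusted p of 0.05 within 2 h, and rises outnumbered falls. There were 840 rises (4.32%) and 205 falls (1.05%). Of the rises 420 were 2-fold or larger and 86 reached a log2 change of 4 or more, while 72 falls were 2-fold or larger and 1 passed a log2 change of −4. The zeocin and mock libraries did not overlap for any of the 1045 called genes, whereas over all genes tested 23.6% did not overlap. The count of falls depended on single libraries more than the count of rises: it was 100 without zeocin replicate 2, 132 without mock replicate 1 and 123 without mock replicate 2. The brl3-2 zeocin falls numbered 357 in DESeq2 and 324 in a fit of the 6 brl3-2 libraries alone. The median log2 change of all genes was −0.00336, and 6 genes often used as steady references (UBQ10, ACT2, PP2AA3, GAPC2, UBC21 and the elongation factor gene A1) lay between −0.04 and 0.06.

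**Figure D1:**
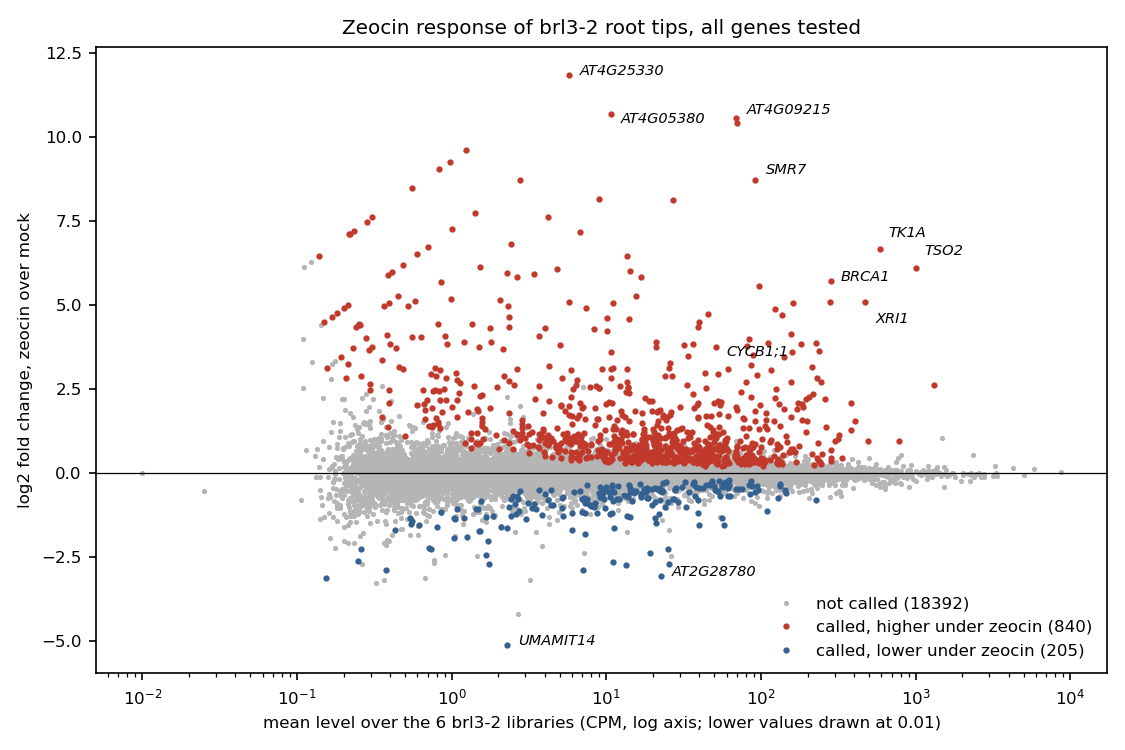
Each point is a gene, with its mean level over the 6 brl3-2 libraries (CPM, log axis) against its log2 fold change, zeocin over mock. Red points are the 840 called rises and blue points the 205 called falls: the rises reach log2 changes above 10, where values of genes without mock counts depend on the prior count, and the falls are led by UMAMIT14 at −5.13.

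The larger called changes were in genes that were low in mock roots, an order that the filter and the call partly set. At low counts only large changes pass, and genes nearly absent from mock passed the filter through libraries where they were higher. The 840 rises had a median mock level of 11.9 CPM and the 205 falls one of 16.5 CPM, against 17.0 CPM over all genes tested, while the 420 rises of 2-fold or more had a median of 3.22 CPM and the 72 falls of 2-fold or more one of 4.44 CPM. Together the 840 risen genes made up 4.93% to 5.75% of the CPM in the zeocin libraries and 2.21% to 2.27% in the mock libraries. For 14 of the rises the mock group held at most 3 counts in all 3 libraries together while the zeocin mean was at least 1 CPM.

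Genes that sense damage or carry the signal were not called, and 4 genes of the checkpoint rose. Of 16 sensing and checkpoint genes, all tested, 4 rose and none fell, and the list had a median log2 change of 0.07. This list and those below were put together with earlier results of these data known, so their counts of calls are descriptions. ATM, the kinase that responds to double-strand breaks, averaged 54.4 CPM under zeocin and 56.2 CPM in mock, and SOG1 averaged 25.9 CPM under zeocin and 26.4 CPM in mock. Neither passed the test, with log2 changes of −0.05 ± 0.14 and −0.03 ± 0.06 (SE, n = 3 per group; edgeR adjusted p = 0.948 and 0.923). The break-binding genes MRE11, RAD50 and NBS1 had log2 changes of 0.03, −0.18 and 0.05 and were not called either.

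RAD17, which loads the checkpoint clamp onto damaged DNA, had 165, 156 and 147 CPM in the zeocin libraries and 17.7, 16.2 and 16.5 CPM in the mock libraries. The groups lay far apart, and the log2 change was 3.21 ± 0.07 (edgeR adjusted p = 8.61e-11). NAC044, a NAC factor that acts below SOG1 in holding cells before mitosis, had 64.1, 69.9 and 43.2 CPM under zeocin against 5.03, 5.41 and 2.05 CPM in mock. It rose by 3.82 ± 0.50 on the log2 scale (edgeR adjusted p = 0.000442), with replicate 3 the lowest in both groups. Its relative NAC085 was near the limit of detection in mock, with 2 mock counts and a count ratio of 43.3 (95% counting interval 11.7 to 363). Its call was lost without mock replicate 1 (edgeR adjusted p = 0.0519). WEE1, a kinase that inhibits cyclin-dependent kinases, had 16.0, 17.9 and 15.01 CPM under zeocin and 5.84, 6.41 and 6.31 CPM in mock, a log2 change of 1.40 ± 0.11 (edgeR adjusted p = 7.60e-06). MYB3R1, MYB3R3 and MYB3R5, factors that govern mitotic genes, had log2 changes of 0.15, 0.05 and 0.05 and did not pass.

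Inhibitors of cyclin-dependent kinases differed within their families. Of 9 tested SIM and SMR genes 4 rose (44.4%, against 5.38% called over all genes), none fell and the median log2 change was 0.32. SMR7 had 201, 206 and 144 CPM in the zeocin libraries and 0.349, 0.429 and 0.529 CPM in the mock libraries. It was nearly silent in mock and far above that in every zeocin library, a log2 change of 8.71 ± 0.19 (edgeR adjusted p = 9.17e-11). SMR4 followed with 32.6, 35.5 and 31.4 CPM under zeocin and 0.698, 0.601 and 0.435 CPM in mock (log2 change 5.83 ± 0.15, edgeR adjusted p = 3.45e-10).

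SMR6 and SIM, the founding member that drives endoreduplication in trichomes, rose less. SMR6 had a log2 change of 2.6 ± 0.31 at a low level (2.40 ± 0.24 CPM under zeocin and 0.394 ± 0.063 CPM in mock, SD), and SIM one of 1.04 ± 0.12 (45.7 CPM under zeocin and 22.2 CPM in mock). SMR1, SMR2, SMR3, SMR8 and SMR11 did not pass, with log2 changes from −0.18 to 0.32. SMR5 had no read in any library of the series, and SMR9 and SMR12 had too few to be tested. About 31.4% of the SIM exons lie opposite exons on the other strand, and since the strand setting of the counting is not given, reads of the partner cannot be told apart. In the KRP family of inhibitors KRP6 alone was called of 7 tested (14.3%, against 5.38% over all genes). It had 33.9, 35.5 and 27.1 CPM under zeocin against 9.24, 12.0 and 12.0 CPM in mock, a log2 change of 1.54 ± 0.14 (edgeR adjusted p = 1.67e-05). The other 6 KRP genes lay between −0.20 and 0.36.

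**Figure D2:**
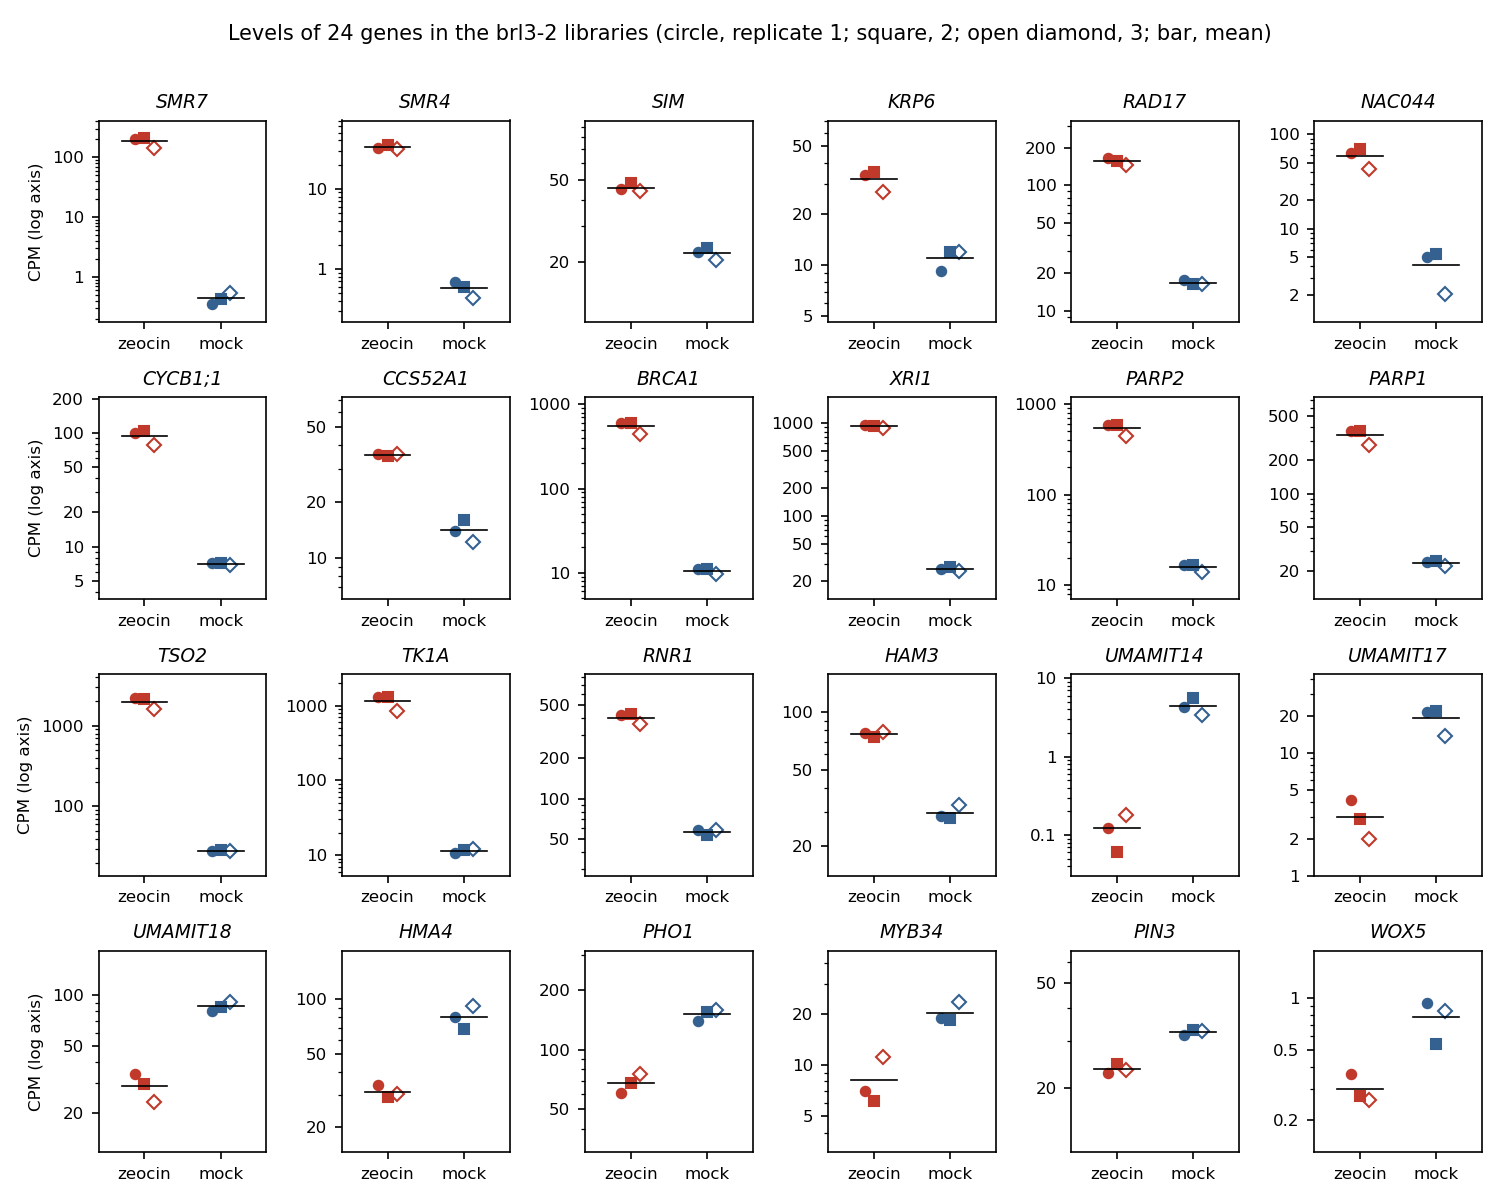
Levels of 24 genes in each brl3-2 library, in CPM on log axes that differ between panels, with zeocin in red left of mock in blue and a bar at each group's mean (n = 3). The libraries of the groups do not overlap in any panel, as holds for every called gene. The open diamond of zeocin replicate 3 lies below the other zeocin libraries for most risen genes.

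Genes of homologous recombination, which repairs breaks from an intact copy, rose in a strong subset while most members did not pass. Of 18 tested 6 rose (33.3%, against 5.38% called over all genes), none fell, and the median log2 change was 0.23. XRI1, named for its induction by X-rays, had 937, 930 and 873 CPM under zeocin and 26.7, 28.1 and 25.5 CPM in mock. Its replicates were close together in both groups, and the log2 change was 5.09 ± 0.10 (edgeR adjusted p = 8.61e-11). BRCA1, a ubiquitin ligase of break repair, had 604, 607 and 445 CPM under zeocin and 11.0, 11.1 and 9.80 CPM in mock (log2 change 5.70 ± 0.21, edgeR adjusted p = 7.75e-09).

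COM1, also known as GR1, which helps trim broken ends, had 96.9, 95.1 and 69.1 CPM under zeocin and 3.02, 3.38 and 3.42 CPM in mock, a log2 change of 4.73 ± 0.14. Smaller rises were found for FANCD2 of the interstrand crosslink pathway (1.66 ± 0.12) and for RAD54, a translocase that aids strand exchange (1.20 ± 0.14). FANCM, a helicase that limits crossovers, rose by 0.39 ± 0.09, and its call was lost when any of the 6 brl3-2 libraries was left out, with an edgeR adjusted p of up to 0.139. BRCA1's partner gene BARD1 had 9.0 CPM under zeocin and 8.52 CPM in mock and was not called, and the breast-cancer type 2 homologues BRCA2A and BRCA2B had log2 changes of 0.26 and 0.14 without passing.

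Chromatin partners of repair were called in part. SYN2, a cohesin subunit of the RAD21 type, had 453, 443 and 384 CPM under zeocin and 29.8, 29.7 and 28.5 CPM in mock, a log2 change of 3.86 ± 0.12 (edgeR adjusted p = 1.36e-09). GMI1, an SMC-hinge protein of recombination, rose by 4.69 ± 0.36 and SYN3, another cohesin kleisin, by 0.67 ± 0.10. The core cohesin genes SMC1 and SMC3, with levels above 100 CPM in both groups, had log2 changes of 0.02 and 0.01, and SYN4, SMC5, SMC6A and SMC6B were not called. In all 3 of 9 members rose (33.3%, against 5.38% called over all genes) and none fell, with a median of 0.02.

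Replication protein A, which coats single-stranded DNA, is a trimer whose subunits are encoded by several genes each. RPA1E, a large subunit, had 146, 139 and 130 CPM under zeocin and 20.9, 21.1 and 21.7 CPM in mock, a log2 change of 2.70 ± 0.09 (edgeR adjusted p = 1.77e-09). The large subunits RPA1C and RPA1A rose by 1.94 ± 0.08 and 1.08 ± 0.06 (with 11.2% of the RPA1C exons opposite another gene's exons), while RPA1B, at 5.32 CPM under zeocin and 5.35 CPM in mock, and RPA1D did not pass. Of the middle subunits RPA2B, with 13.7% of its exons opposite exons of another gene, rose by 0.61 ± 0.12, a call lost without mock replicate 1 or mock replicate 2 (edgeR adjusted p up to 0.0578), and RPA2A had a change of 0.31 that was not called. In all 4 of 9 rose (44.4%, against 5.38% called over all genes), none fell, and the median log2 change was 0.61.

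End joining genes did not pass, whereas genes of poly(ADP-ribose) turnover rose. KU70 and KU80, which bind broken ends, had log2 changes of −0.07 and 0.05, and LIG4, XRCC4 and LIG6 had 0.17, −0.20 and 0.13. PARP2 (AT4G02390), a poly(ADP-ribose) polymerase, had 591, 582 and 445 CPM under zeocin and 16.7, 16.9 and 14.1 CPM in mock (log2 change 5.08 ± 0.14, edgeR adjusted p = 8.01e-10). PARP1 (AT2G31320) had 369, 372 and 278 CPM under zeocin and 24.1, 24.6 and 22.4 CPM in mock (log2 change 3.84 ± 0.16, edgeR adjusted p = 1.99e-08). PARG1, listed as TEJ, encodes a glycohydrolase that removes the polymer and rose by 1.48 ± 0.11. These are the 3 rises among 11 tested genes of the list (27.3%, against 5.38% called over all genes), which had a median of 0.13 and no fall. Among 12 translesion and mismatch repair genes only POLK, a polymerase that copies past lesions, was called (8.33%, against 5.38% over all genes). It had 96.3, 92.7 and 78.3 CPM under zeocin and 19.7, 22.1 and 20.6 CPM in mock, a log2 change of 2.1 ± 0.09. POLH, REV1, REV3 and the mismatch repair genes MSH3, MSH6 and MSH7 lay between −0.04 and 0.27.

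Enzymes that make deoxynucleotides held some of the most abundant transcripts of the response. TSO2, a small subunit of ribonucleotide reductase, had 2182, 2147 and 1590 CPM under zeocin and 28.3, 29.3 and 27.9 CPM in mock. That is a log2 change of 6.11 ± 0.17 (edgeR adjusted p = 8.02e-10), and by mean CPM it was the largest gain of any called gene. TK1A, a thymidine kinase of the salvage pathway, had 1324, 1289 and 858 CPM under zeocin and 10.6, 11.8 and 11.9 CPM in mock (log2 change 6.66 ± 0.20). RNR1, the large reductase subunit, had 420, 424 and 358 CPM under zeocin and 57.9, 53.2 and 58.7 CPM in mock (log2 change 2.82 ± 0.15). Close relatives were not called: RNR2A, at 6.38 CPM under zeocin and 5.66 CPM in mock, and TK1B, at 9.55 CPM under zeocin and 9.41 CPM in mock, did not pass. The list of 8 held 3 rises (37.5%, against 5.38% called over all genes), no fall and a median of 0.13.

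Among replication genes the called changes were small. Of 25 tested 4 rose (16.0%, against 5.38% called over all genes) and none fell, and the median log2 change was 0.25 against −0.00336 over all genes. The called members were E2FA (0.37 ± 0.07) and RBR1 (0.32 ± 0.06), which control entry into S phase, the sliding clamp gene PCNA1 (0.60 ± 0.13) and MCM3 of the replicative helicase (0.54 ± 0.12). The calls of 3 of them were lost in some fits without a library: RBR1 without zeocin replicate 2 or mock replicate 1, MCM3 without zeocin replicate 2 or mock replicates 1 or 2, and PCNA1 without any of these or zeocin replicate 3, with edgeR adjusted p of at most 0.0850. The other MCM genes had log2 changes of 0.17 to 0.35 and were not called. Their zeocin libraries all lay above their mock libraries, as was so for 2528 of the 19437 genes tested.

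Of 34 mitotic genes tested 3 rose (8.82%, against 5.38% called over all genes) and none fell, and the median log2 change was 0.01. CYCB1;1, the B-type cyclin known to be induced by DNA damage in Arabidopsis, had 101, 104 and 79.1 CPM under zeocin and 7.09, 7.21 and 6.90 CPM in mock. It stood alone in its family, with a log2 change of 3.74 ± 0.14 (edgeR adjusted p = 7.75e-09), while the other 8 tested B-type cyclins lay between −0.31 and 0.08 and none was called. CCS52A1, an activator of the anaphase-promoting complex in the endocycle, had 36.0, 35.2 and 35.8 CPM under zeocin and 14.0, 16.0 and 12.1 CPM in mock (log2 change 1.34 ± 0.12, edgeR adjusted p = 1.33e-05). CYCA1;1 rose by 1.1 ± 0.16. The mitotic kinases CDKB1;1, CDKB1;2, CDKB2;1 and CDKB2;2 had log2 changes of 0.17, 0.19, −0.21 and −0.12, and the cytokinesis syntaxin KNOLLE, listed as KN, had −0.04.

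**Figure D3:**
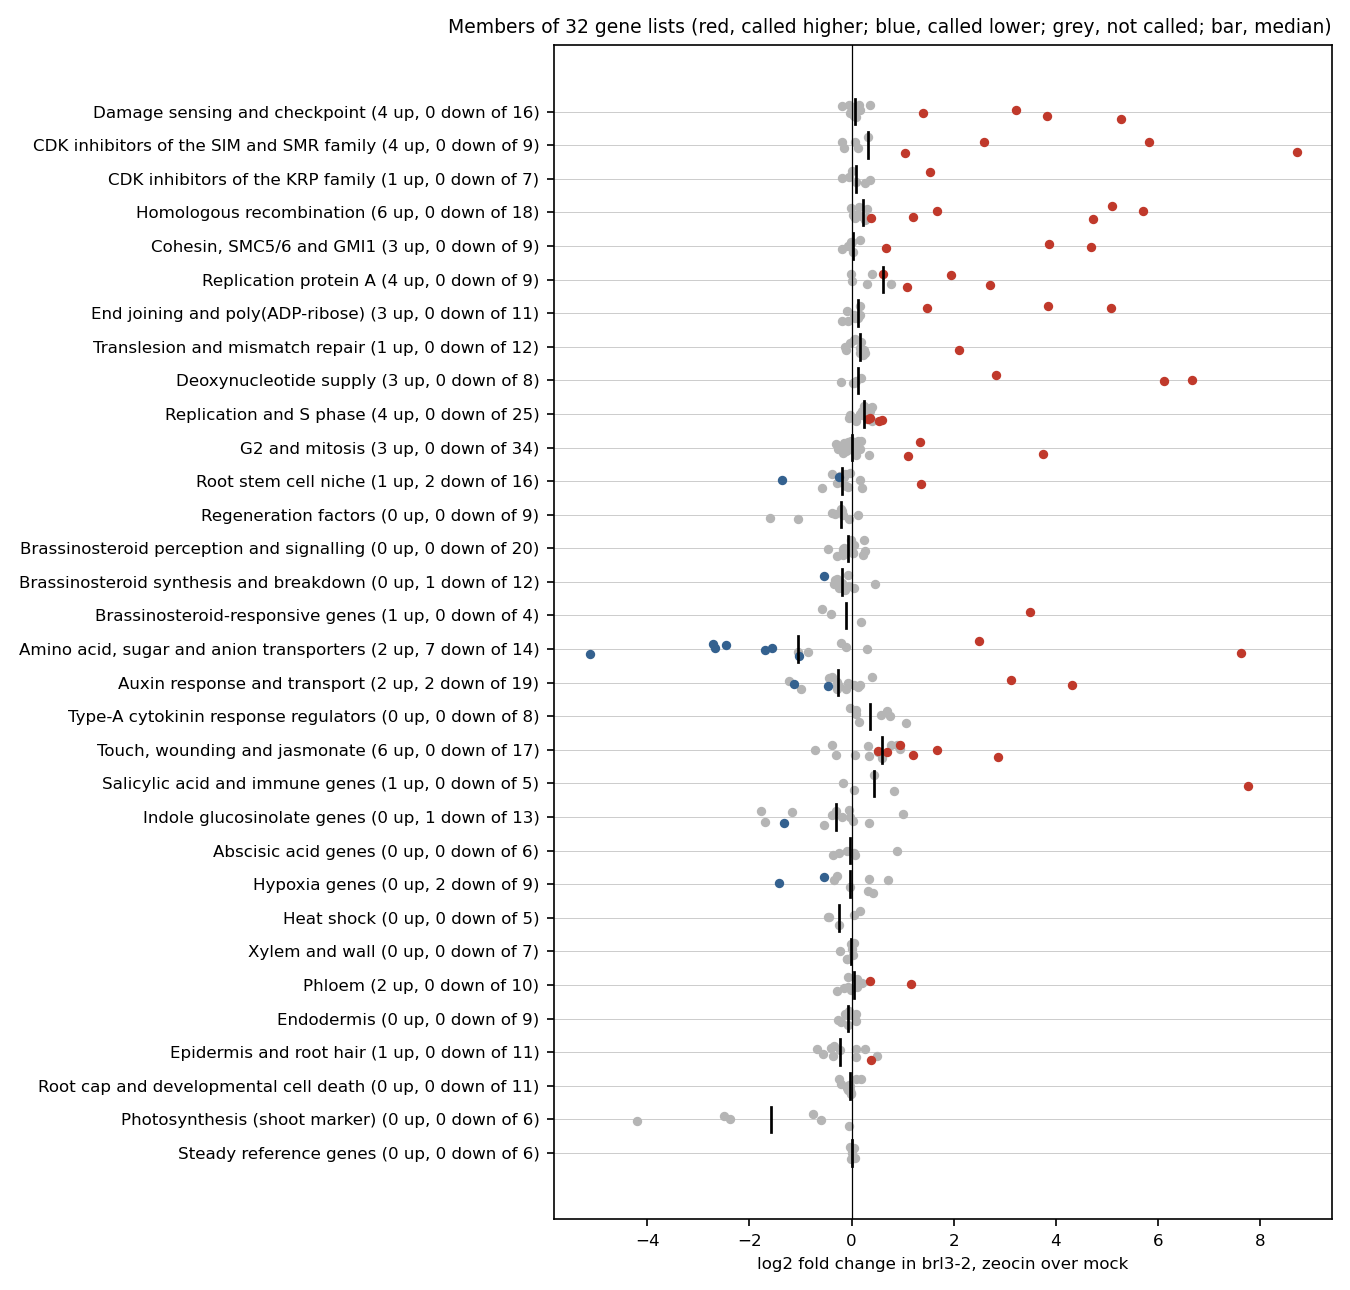
Log2 fold changes, zeocin over mock, of the tested members of 32 gene lists in brl3-2; each point is a gene, a bar marks the list's median, and the counts of calls stand beside each name. Most repair and checkpoint lists have medians near 0 with red points to the right, the replication protein A list has a median of 0.61, and the transporter list has most of its points left of 0.

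Many of the largest relative rises were in little-studied genes that were silent in mock roots. AT4G25330, annotated as a SAWADEE protein (chr4:12957834-12958791), had 12.6, 13.2 and 8.75 CPM under zeocin and no count in any mock library, which makes it at least 384-fold higher against a floor of 3 counts over the mock group. AT4G05380, a predicted P-loop NTPase (chr4:2736109-2738255), had 22.3, 23.1 and 18.4 CPM under zeocin and 1 count in all mock libraries together. Its count ratio was 2145 (95% counting interval 384.5 to 84750, exact binomial on the split of the counts). Intervals and floors of this kind cover counting error only.

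AT4G09215, an uncharacterized RNA with no annotated protein (chr4:16891400-16891847), had 145, 158 and 112 CPM under zeocin and 0.0872, 0.114 and 0.0622 CPM in mock, a log2 change of 10.56 ± 0.22 (edgeR adjusted p = 8.61e-11). AT5G07165, an uncharacterized protein gene (chr5:2221795-2222603), was as strongly induced, with 158, 146 and 112 CPM under zeocin and 0.0872, 0.0286 and 0.187 CPM in mock. In both genes every zeocin library lay above every mock library, as in every called rise. A second uncharacterized RNA, AT3G00800, had 55.9, 58.9 and 46.5 CPM under zeocin and 0.349, 0.143 and 0.0622 CPM in mock (log2 change 8.14 ± 0.31).

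Further genes of this group were less abundant. SK9, a member of the SKP1-like family of ubiquitin ligase adaptors, AT3G29340, a C2H2 zinc finger gene, AT3G28510, a predicted P-loop NTPase, and AT5G53240, of unknown function, had no mock count and were at least 80.5-, 64.9-, 56.1- and 37.0-fold higher under zeocin. AT1G20750, a RAD3-like helicase gene, had 5.65, 7.67 and 3.17 CPM under zeocin and 1 mock count, a count ratio of 545 (97.5 to 21570). The receptor kinase gene CRK6 had 3.27, 3.67 and 1.51 CPM under zeocin and likewise 1 mock count, a ratio of 278 (49.6 to 11040). AT1G68240, a bHLH factor gene, rose by 8.17 ± 0.57 and the pectinesterase gene AT3G14300 had 2.23, 2.09 and 1.66 CPM under zeocin with 1 mock count, a ratio of 201 (35.6 to 7959). SK9 and CRK6 belong to families of related genes, and how reads shared between relatives were counted is not given in the sources used here.

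Some abundant transcripts also rose. AT2G18193, a predicted P-loop NTPase, had 2552, 2496 and 1744 CPM under zeocin and 402, 379 and 329 CPM in mock, a log2 change of 2.61 (edgeR adjusted p = 3.77e-07). NBR1, a receptor of selective autophagy, had 1123, 1077 and 895 CPM under zeocin and 516, 518 and 567 CPM in mock. The subtilase gene ARA12 had a log2 change of 2.09, the basal transcription factor gene TFIIB 1.56, and CP1, a calcium-binding protein gene, 3.63. In each of these 5 genes all zeocin libraries lay above all mock libraries, as in every called rise.

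Transporters led the falls. Of 14 tested amino acid, sugar and anion transporter genes 7 fell and 2 rose (64.3% called, against 5.38% over all genes). The median log2 change was −1.04. Like the other lists, this one was put together with earlier results of these libraries known, so its count is a description. UMAMIT14, an amino acid exporter of root vascular tissue, had 0.122, 0.0606 and 0.182 CPM under zeocin and 4.33, 5.67 and 3.36 CPM in mock. It was almost lost from every zeocin library, a log2 change of −5.13 ± 0.34 (edgeR adjusted p = 1.22e-06).

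UMAMIT17 had 4.12, 2.88 and 2.00 CPM under zeocin and 21.5, 21.8 and 13.6 CPM in mock (log2 change −2.67 ± 0.37, edgeR adjusted p = 0.000758). UMAMIT18, also known as SIAR1, had 34.1, 29.8 and 23.4 CPM under zeocin and 80.7, 84.7 and 91.4 CPM in mock (log2 change −1.56 ± 0.17), and UMAMIT11 fell by 1.70 ± 0.15. UMAMIT28 did not follow: at 3.06 CPM under zeocin and 3.31 CPM in mock it was not called. Among the sugar exporters SWEET11 fell by 2.47 ± 0.62, at 0.503 CPM under zeocin and 2.84 CPM in mock, a call that was lost when any brl3-2 library was left out (edgeR adjusted p up to 0.173). SWEET12, with a log2 change of −1.05 ± 0.54, was not called. Its zeocin libraries all lay below its mock libraries, as was so for 10.6% of all genes tested. The phloem loader SUC2 had a change of −0.20 that was not called.

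The anion channel genes moved in both directions. SLAC1, listed as OZS1 and best known from guard cells, had 8.37, 9.15 and 7.5 CPM under zeocin and 0.0291, 0.0859 and 0 CPM in mock, a log2 change of 7.62 ± 0.47 (edgeR adjusted p = 4.53e-06). Its relative SLAH1 rose by 2.49 ± 0.28 while SLAH3 fell by 1.03 ± 0.25, with 15.8 CPM under zeocin and 32.3 CPM in mock on average. Of the SLAC1 exons 43.0% lie opposite exons on the other strand, so its reads cannot be told apart from those of the partner.

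Other large falls included enzymes, transporters and regulators. AT2G28780, annotated as an efflux pump subunit, had 5.68, 5.33 and 3.38 CPM under zeocin and 39.1, 56.5 and 26.3 CPM in mock (log2 change −3.09, edgeR adjusted p = 0.00114). The peroxidase gene AT1G49570 had 8.55, 8.61 and 3.12 CPM under zeocin and 50.7, 35.4 and 45.6 CPM in mock. In both genes every zeocin library lay below every mock library, as in every called fall. AT4G00910, of the aluminium-activated malate transporter family, had a log2 change of −2.89, OCT1, an organic cation transporter gene, −2.71, the terpenoid synthase gene TPS13 −2.39 and GA20OX2, which encodes a step of gibberellin synthesis, −2.23. Exons of other genes lie opposite 43.1% of the AT4G00910 and 15.6% of the TPS13 exons. The factor genes MYB48 and MYB78 had log2 changes of −2.05 and −1.91.

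By difference in CPM, XTH15 and PHO1 dropped most among the called falls. XTH15, a xyloglucan-modifying enzyme gene, had 189, 166 and 138 CPM under zeocin and 299, 280 and 285 CPM in mock (log2 change −0.81, edgeR adjusted p = 0.00392), with 31.6% of its exons opposite another gene's exons. PHO1, which exports phosphate into the xylem, had 60.7, 67.8 and 75.8 CPM under zeocin and 140, 155 and 158 CPM in mock. HMA4, a zinc pump that loads the xylem, had 33.8, 29.2 and 30.5 CPM under zeocin and 79.6, 68.5 and 91.8 CPM in mock. Their log2 changes were −1.15 and −1.36 (edgeR adjusted p = 0.000277 and 6.78e-05). In a bulk sample of root tip, fewer cells of a type and less RNA per cell cannot be told apart.

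Brassinosteroid genes held 2 calls. None of the 20 tested genes of perception and signalling was called in either direction, with a median log2 change of −0.07 and a range of −0.46 to 0.26; over all genes 5.38% were called. BRI1, the main receptor, averaged 290 CPM under zeocin and 250 CPM in mock (log2 change 0.21 ± 0.06, edgeR adjusted p = 0.0841). The co-receptor BAK1 averaged 145 CPM in both groups. Of 12 synthesis and breakdown genes ROT3, a hydroxylase gene of the pathway, fell, with 13.6, 12.3 and 12.2 CPM under zeocin and 20.4, 17.5 and 17.7 CPM in mock (log2 change −0.55 ± 0.10, edgeR adjusted p = 0.00690). Among 4 tested brassinosteroid-responsive genes XTH22, also called TCH4 and known to respond to touch as well, rose by 3.5 ± 0.27, with 166, 173 and 153 CPM under zeocin and 11.3, 14.7 and 17.7 CPM in mock. HAT2, EXPA8 and IBH1 of the same list were not called.

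Auxin genes showed 2 rises and 2 falls among 19 tested (21.1%, against 5.38% called over all genes), with a median of −0.27. IAA29, a repressor of auxin response, had 7.94, 8.27 and 6.75 CPM under zeocin and 0.349, 0.486 and 0.311 CPM in mock, a log2 change of 4.31 ± 0.19 (edgeR adjusted p = 2.79e-08). IAA5, another repressor, had 0.208 to 0.366 CPM under zeocin and 0.0286 to 0.0311 CPM in mock (3 counts, a count ratio of 9.41 with a 95% counting interval of 2.92 to 48.3), and its call was lost in 5 of 6 fits without a library (edgeR adjusted p up to 0.0973). The auxin exporter gene PIN3 fell to 22.7, 24.6 and 23.3 CPM under zeocin, against 31.7, 33.0 and 32.9 CPM in mock (log2 change −0.47 ± 0.07). PIN4 and PIN7 had log2 changes of −0.29 and −0.26 that were not called. LBD16, a factor of lateral root founding, fell by 1.14 ± 0.24, a call lost without zeocin replicate 3, mock replicate 2 or mock replicate 3 (edgeR adjusted p up to 0.0649). None of 8 tested type-A response regulators, the early genes of cytokinin response, was called (5.38% over all genes), at a median of 0.36.

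Regulators of the stem cell niche held 3 calls among 16 tested (18.8%, against 5.38% over all genes), and 2 of these were lost in most fits without a library. HAM3, a GRAS factor that maintains meristem cells, had 77.5, 73.8 and 78.8 CPM under zeocin and 28.8, 27.9 and 32.8 CPM in mock, a log2 change of 1.36 ± 0.07 (edgeR adjusted p = 8.17e-08). HAM1 and HAM2 had −0.08 and −0.16 and were not called. WOX5, which marks the quiescent centre, had 0.366, 0.273 and 0.260 CPM under zeocin and 0.930, 0.544 and 0.840 CPM in mock, a log2 change of −1.36 ± 0.35 (edgeR adjusted p = 0.0482). JKD, a zinc finger gene of the ground tissue, had a log2 change of −0.25 ± 0.06 (edgeR adjusted p = 0.0467).

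The calls of WOX5 and JKD were each lost in 5 of the 6 fits without a library, with edgeR adjusted p of up to 0.188 and 0.209, and with limma-voom or without the filter on low counts, and that of JKD also in the fit of the 6 brl3-2 libraries alone. PLT1, PLT2, PLT3 and BBM, which set the gradient of stem cell identity, had log2 changes of −0.22, −0.59, −0.38 and −0.29 and were not called, nor were SHR and SCR. That left 1 rise and 2 falls among 16 tested, with a median of −0.19. Of 9 regeneration factors tested none was called (5.38% over all genes), and ERF115, a factor of stem cell replenishment, had too few reads to test.

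Stress genes rose in part. Among 17 tested genes of touch, wounding and jasmonate 6 rose (35.3%, against 5.38% called over all genes) and none fell, with a median of 0.59. WRKY25 had 105, 108 and 67.2 CPM under zeocin and 26.6, 30.6 and 30.2 CPM in mock (log2 change 1.68 ± 0.21, edgeR adjusted p = 0.000319), WRKY33, a regulator of defence, rose by 1.20 ± 0.16 and WRKY46 by 2.87 ± 0.46. The zinc finger gene SZF1 rose by 0.94 ± 0.09. ERF6 and ERF104, of ethylene response, rose by 0.69 and 0.51 with calls lost in 4 and all 6 of the fits without a library (edgeR adjusted p up to 0.137 and 0.154). The jasmonate repressors JAZ1, JAZ7 and JAZ10 were not called.

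Of 13 indole glucosinolate genes 1 was called (7.69%, against 5.38% over all genes): MYB34, a regulator of the pathway, fell to 7.02, 6.12 and 11.2 CPM under zeocin, against 19.0, 18.4 and 23.5 CPM in mock (log2 change −1.32 ± 0.19, edgeR adjusted p = 0.000977). The pathway enzymes CYP79B2 and CYP79B3 had changes of −1.77 ± 0.63 and −1.70 ± 0.50 that were not called. Of 9 hypoxia genes HRE1 and PCO1 fell (22.2% called, against 5.38% over all genes), by 0.54 ± 0.11 and 1.43 ± 0.37. The HRE1 call was lost without zeocin replicate 2 (edgeR adjusted p = 0.0536), and the PCO1 call when any brl3-2 library was left out (up to 0.189), with limma-voom and without the filter on low counts. No gene was called among 6 abscisic acid genes and 5 heat shock genes, and CRK6 was the only call among 5 tested immune genes.

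Lists of root cell type markers held 0 to 2 calls each, beside 5.38% called over all genes. None of 7 xylem, 9 endodermis and 11 root cap and cell death genes passed, and their medians were −0.02, −0.06 and −0.04. Summed endodermis markers ran from 532 CPM in zeocin replicate 3 to 877 CPM in zeocin replicate 1, and from 653 to 796 CPM in mock, so the groups overlapped. Of 10 phloem genes 2 rose: SEOR1, of sieve element protein filaments, had 88.7, 76.3 and 56.7 CPM under zeocin and 30.6, 33.6 and 34.5 CPM in mock, and the sieve plate callose synthase gene CALS7 rose by 0.36 ± 0.08, a call lost in 5 of 6 fits without a library (edgeR adjusted p up to 0.140). SEOR1 changed by 1.17 ± 0.17 on the log2 scale. Of 11 epidermal genes GL2 was called at an edgeR adjusted p of 0.0494 and lost under RLE scaling, with limma-voom, without the filter on low counts, in the fit of the 6 brl3-2 libraries alone and in 4 fits without a library (edgeR adjusted p up to 0.198). No photosynthesis marker was called, at a median of −1.58, and mock replicate 2 held the high sum given above.

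The palindrome shown above was more frequent near the starts of risen genes than elsewhere. It stood within the window of 34.9% of the 86 rises with a log2 change of 4 or more (95% Wilson interval 25.7% to 45.4%), and of 30.4% of the 138 rises between 2 and 4 (23.4% to 38.6%). Rises between 1 and 2 held it in 17.9% of windows and smaller rises in 19.3%. Falls held it in 6.34% (3.74% to 10.5%) and genes not called in 10.7% (10.3% to 11.2%). Over all genes tested with a window the share was 11.2%, and over all annotated windows it was 11.5%.

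Counted before the start alone, rises of 2-fold or more held the motif in 19.8% of windows and all genes tested in 9.13%. The motifs of these rises were most frequent from 100 to 51 bases before the start, with 7.38 motifs per 100 windows against 2.12 over all genes tested. Over the whole window, 3 of the 4 risen SIM and SMR genes held it: SMR7, SMR4 and SMR6. KRP6, PARP2, PARG1, COM1, RAD54, RNR1 and NAC044 of the other lists held it too. In SMR6, PARG1, KRP6 and RNR1 the motif was centred at positions 38, 20, 1 and 0 from the start, so not wholly before it. XRI1, BRCA1, TSO2, TK1A, PARP1, SYN2 and CYCB1;1 did not hold it in this window. List members that did not rise held it as well. In the end joining and poly(ADP-ribose) list 6 of 11 windows held it, and 2 of the 3 risen members did. A match is a string of letters, not a bound site, and the absence of one says nothing of the factor.

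Motifs of cell cycle factors were compared in the same windows on both strands, and a window can hold more than 1 motif. The MYB3R-type core AACGG was in 24.3% of windows of rises of 2-fold or more and in 26.5% over all genes tested. The E2F-type sites TTTCCCGC and TTTGGCGC were in 3.33% of windows of rises of 2-fold or more (2.0% to 5.52%) and in 1.32% over all genes tested. By size of the rise the E2F-type share was 6.98% at a log2 change of 4 or more (6 of 86), 5.07% between 2 and 4 and 0.51% between 1 and 2 (1 of 196). SMR7, SMR6, RNR1 and AT1G20750 held both an E2F-type site and the palindrome.

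**Figure D4:**
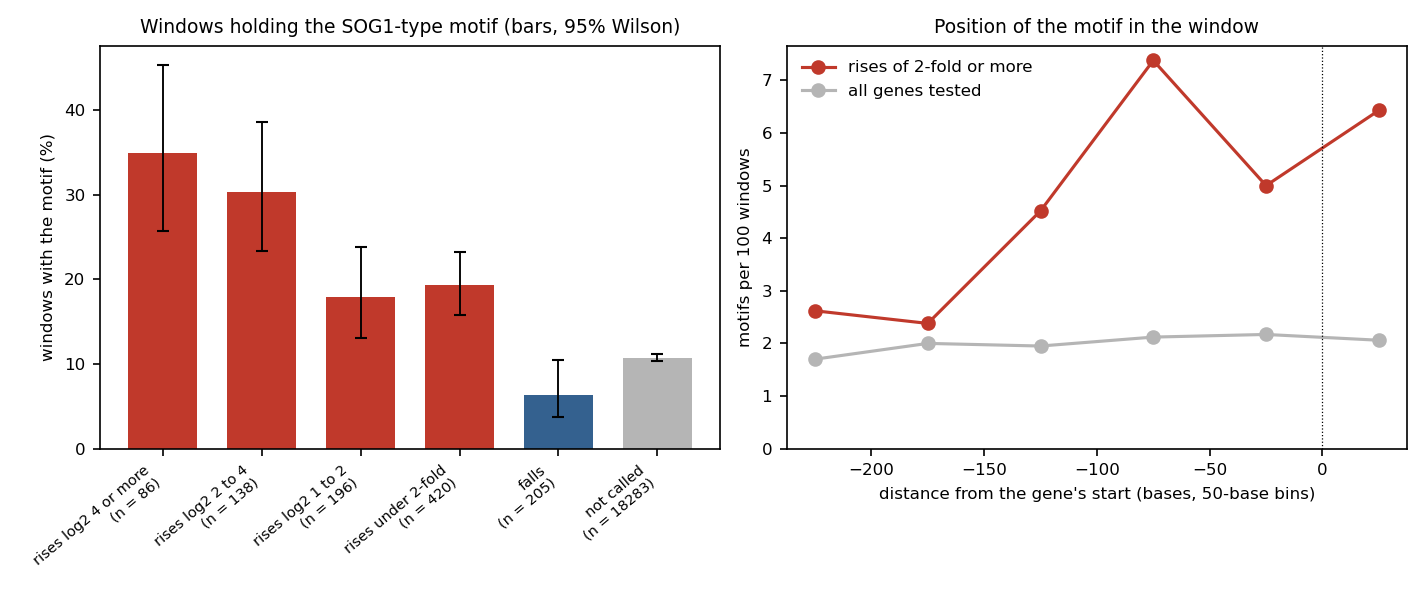
Left, share of windows (250 bases before to 50 after the start) with the SOG1-type motif by size of the zeocin response in brl3-2, with 95% Wilson intervals; right, motifs per 100 windows by distance from the gene's start in bins of 50 bases. The share is 34.9% in the largest rises and 6.34% in falls, and the risen genes exceed all genes tested in every bin, most between 100 and 51 bases before the start.

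Set beside WT, the response of brl3-2 shared most of its called genes. WT had 967 called genes (4.98%), and 694 genes rose in both, which is 82.6% of the brl3-2 rises and 87.6% of the WT rises. Both genotypes shared 121 falls, 59.0% of those in brl3-2 and 69.1% of those in WT. Of the brl3-2 calls 836 of 840 rises and 202 of 205 falls had the same sign in WT, and no gene was called in opposite directions. Across the 1197 genes called in either genotype the changes had a Pearson r of 0.973, and over all genes tested one of 0.893. Both are descriptions over genes, which are not independent replicates.

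Genes called in brl3-2 changed a little more there than in WT. The median log2 change of the 840 rises was 1.00 in brl3-2 and 0.87 in WT, and that of the 205 falls was −0.76 in brl3-2 and −0.59 in WT. Because these genes were chosen by their call in brl3-2, this order is a description and was not tested. The test of the difference between the responses (edgeR, brl3-2 response minus WT response) called 0 of 19437 genes, with 194 (0.998%) at an unadjusted p under 0.05, and DESeq2 and limma-voom also called 0. Evenly spread p-values would put a share of 0.05 of the genes there. The test thus gave fewer small p-values than no difference would, and 0 calls do not show that the responses are alike. The smallest edgeR adjusted p was 1.00, so a call in brl3-2 without a call in WT does not show that the responses differ.

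**Figure D5:**
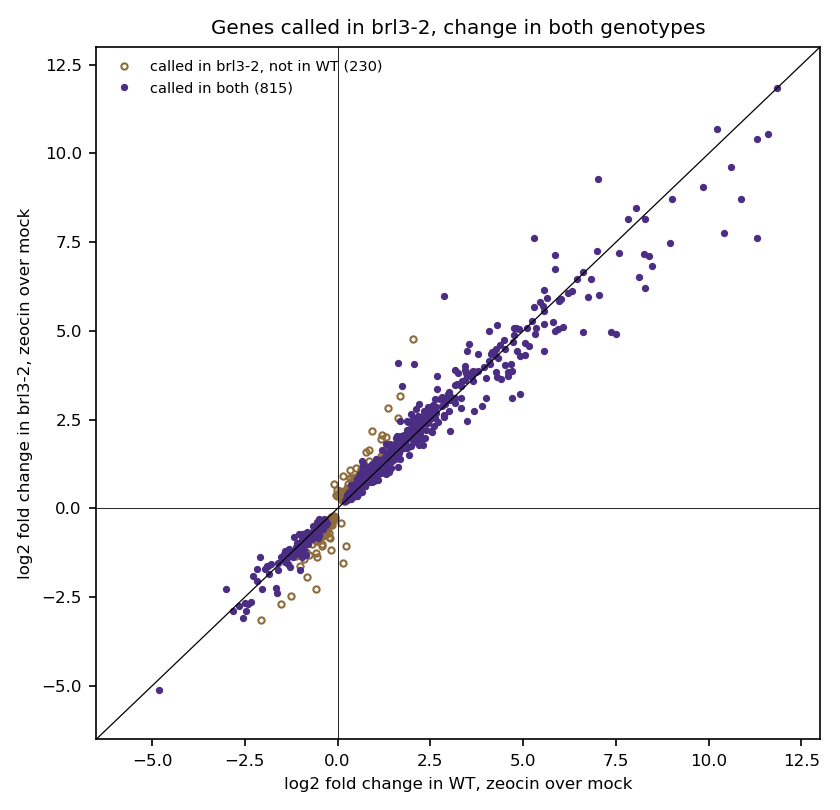
Log2 fold changes, zeocin over mock, of the 1045 genes called in brl3-2, in brl3-2 (vertical axis) against WT (horizontal axis); filled points were called in both genotypes and open points in brl3-2 without a call in WT. The points follow the line of equal change, and most open points lie near the origin.

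The 8 called genes with the smallest unadjusted p for that difference are given by value, since none passes after adjustment. AGK2, a guanylate kinase gene, had 429, 410 and 446 CPM under zeocin and 94.6, 87.3 and 97.6 CPM in mock, a log2 change of 2.20 in brl3-2 and 1.88 in WT. SP1L5, of the SPIRAL1-like microtubule proteins, had 0.611, 0.758 and 0.805 CPM under zeocin and 0.0291, 0 and 0.0933 CPM in mock, a change of 4.10 in brl3-2 and 1.62 in WT. The invertase inhibitor-like gene AT5G62340 had changes of 0.70 in brl3-2 and 0.28 in WT, WRNEXO, an exonuclease gene with 29.4% of its exons opposite another gene's exons, 0.51 in brl3-2 and −0.01 in WT, and GG1, a G-protein gamma subunit gene, 0.44 in brl3-2 and 0.11 in WT. Falls in brl3-2 of AT3G45660, a transporter-like gene, AT2G25790 and AT2G27060, receptor kinase-like genes, were −1.07, −1.0 and −0.42, against 0.22, −0.41 and 0.10 in WT. Calls in brl3-2 were lost without a library for AT3G45660 and WRNEXO in 5 and 4 of 6 fits and for AT2G27060 in all 6 (edgeR adjusted p up to 0.0914, 0.101 and 0.189). Those of WRNEXO and AT2G27060 were also lost in the fit of the 6 brl3-2 libraries alone, and that of AT2G27060 without the filter on low counts.

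For the BRL3 transcript itself the changes lay apart. In WT it was a called rise, with 21.5, 31.7 and 31.2 CPM under zeocin and 9.55, 10.4 and 12.9 CPM in mock (log2 change 1.36 ± 0.18, edgeR adjusted p = 0.000519), whereas in brl3-2 the zeocin and mock libraries overlapped at about 1 CPM. The difference of the responses was −1.37 ± 0.32 on the log2 scale, with an unadjusted p of 0.00115 and an edgeR adjusted p of 1.00.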

How the data were processed

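Poly(A) RNA of root tips was sequenced from TruSeq stranded libraries, each in 2 runs. The submitters' processing notes name FastQC 0.11.2, Trimmomatic 0.38, HISAT2 2.1, featureCounts 1.6.2, edgeR 3.34.1 and the TAIR10 build; the strand setting of the counting is not given in the sources used here. The authors deposited raw counts per gene for 12 libraries of 32668516 to 73481046 counts, and 1 row without a gene name (up to 0.00393% of a library) was left out.

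Of 33296 genes, 19437 passed filterByExpr (minimum count 10, minimum total 15). All 12 libraries were fitted together by group with edgeR 4.0.16 (TMM, quasi-likelihood F-test, R 4.3.3), p-values were adjusted over all genes tested (Benjamini-Hochberg), and an adjusted p under 0.05 was a call. SEs were taken from the log2 change and F. The scripts were tested on simulated data. Alternatives used DESeq2 1.42.0, limma 3.58.1 and other filters, scalings and sample sets.

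Promoter windows were read from RefSeq TAIR10.1. Genes were named by rule: BRL3, the 15 largest called rises and falls (at least 1 CPM in the higher group, libraries not overlapping), the 10 largest differences in CPM each way, up to 6 called members of each list by p, and the 8 called genes with the smallest p of the response difference. List members not called, and SLAH3, were named after their values were seen. The members and lists were chosen with earlier results of these data known.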

Additional observations from a re-analysis of the deposited data

How the results depend on the processing

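The brl3-2 zeocin rises (840) stayed within 1.5-fold under every alternative: 836 with RLE scaling, 812 without a filter, 800 with a minimum count of 50, 1025 with DESeq2, 795 with limma-voom, 894 with the 6 brl3-2 libraries alone and 1079 without both WT libraries numbered 3. The brl3-2 zeocin falls (205) moved to 357 with DESeq2, 324 with the 6 libraries alone and 372 without both WT libraries numbered 3; the cause was not tested. Leaving out 1 brl3-2 library gave 606 to 821 rises and 100 to 157 falls, the fewest falls without zeocin replicate 2. The response difference had 0 calls under all its alternatives. The motif share of rises of 2-fold or more was 25.5%, and 19.8% with the part before the start alone, a shorter window.

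With a replicate block the brl3-2 zeocin rises numbered 900 and the brl3-2 zeocin falls 244, and 988 of the 1045 calls were kept. Same-numbered libraries had correlations of deviations of 2.15e-06, 0.112 and 0.0342, so the numbers were not taken to pair the samples. JKD, PCO1 and AT2G27060 lost their calls under the block. Of 110 called named genes 87 kept their call and sign under each of the 14 alternatives that tested them, 9 were not tested under some alternative, and 0 changed sign. BRL3, not called, changed sign between alternatives (log2 change −0.215 to 0.202 without 1 library).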
